A study of Schizosaccharomyces pombe with 36 samples.

Results

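The 3 centromeres of fission yeast (Schizosaccharomyces pombe) were examined in maps of DNA polymerase usage, as 493 bins of 300 bp out of 41912 in the genome. The bins were chosen by position alone and cover chr1:3753001-3790000 (123 bins), chr2:1602001-1645000 (144 bins) and chr3:1070001-1138000 (226 bins), and the 1000 bins of the 50 kb on either side of each centromere served for comparison. Coordinates are those of the RefSeq assembly ASM294v3, to which the files' positions were brought by subtracting 3700 bp on chromosome 2 and adding 1760 bp on chromosome 3. Count profiles matched best against those of an unshifted strain of the series at 0, 3680 and -1780 bp on chromosomes 1, 2 and 3.

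The study measured polymerase usage by sequencing (Pu-seq), in which a mutant replicative polymerase leaves ribonucleotides in the strand it makes, alkali breaks the DNA there, and the breaks are counted on each strand. The 22 libraries used here carried a replication fork barrier, RTS1, with an array of 10 copies of ribosomal DNA barriers (rRFB) on the arm of chromosome 2, far from the centromeres. They comprised 9 pairs of a Pol δ mutant (cdc6-L591G) and a Pol ε mutant (cdc20-M630F), and 4 single libraries of a Pol α mutant (pol1-L850F). Every strain was h- with ade6-704, leu1-32, a ura4 deletion and the natural RTS1 site replaced by a marker (RTS1natural::Phleo), and all lacked normal removal of ribonucleotides, through loss of rnh201 (rnh201-d) or through the mutant rnh201-RED. Both alleles were combined with pku70+ or with the label pku70-d (Ku70::hyg in rnh201-RED, Ku70:leu2 in rnh201-d), each with the RTS1 barrier off (rtf1 deleted) or on (rtf1+), which makes 8 pairs, and in the other pair rtf1 was expressed from the adh1 promoter in rnh201-d pku70+. The Pol α strains were labelled pku70+ and had either allele with the barrier off or on, and 8 libraries carried smt0 and 4 smt0x. The label of the rnh201-d pku70+ barrier-off pair names no rRFB array. Each strain was represented by a single library, so the spread given below is the spread between strains.

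Total counts ranged from 6248341 to 29561971 for Pol δ, from 3304406 to 30967258 for Pol ε and from 8820281 to 22231326 for Pol α. Counts over rtf1 were 0.0274 to 0.265 of those beside it in the 10 barrier-off libraries and 0.530 to 0.960 in the 12 others. Counts over pku70 were 0.00299 to 0.0146 of those beside it in the 4 rnh201-RED libraries labelled pku70-d. They were 0.727 to 0.859 in the 4 rnh201-d libraries labelled pku70-d (Ku70:leu2), and so did not bear out a deletion there. How much of the gene the Ku70:leu2 allele removes is not given in the sources used here. The rnh201-d barrier-off Pol α library, labelled pku70+, went against its label, at 0.00198. Any direction by pku70 given here follows the labels, and counts bear the pku70-d label out only within the rnh201-RED libraries.

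A fission yeast centromere consists of a central core, which carries the kinetochore, between a pair of inverted inner repeats, and these lie between outer repeats that are packed in heterochromatin. Origins of replication lie in the outer repeats, and clusters of tRNA genes mark several of the boundaries. At a replication fork Pol ε makes most of the leading strand and Pol δ most of the lagging strand, while Pol α makes the short primers that start each lagging-strand fragment. The strand on which Pol ε is found therefore gives the direction in which a fork passed, and an origin appears as a step from leftward to rightward forks.

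The parts were placed from the repeats in the reference sequence. The central core spanned chr1:3769078-3773195, chr2:1620807-1627609 and chr3:1096803-1102191, with an AT content of 71.4%, 71.4% and 71.6%, against 65.9 to 67.8% in the outer repeats. Of all 50-base words in the centromeres, 90.6% occurred elsewhere in the genome as well, against 4.09% over the whole genome. The core of chromosome 2 was the only part in which no such word was repeated, whereas 76.3% and 62.7% were repeated in the cores of chromosomes 1 and 3. A read from a repeated sequence cannot be assigned to 1 copy by its letters, and how such reads were placed is not given in the sources used here, so values in repeated bins need not be those of that position alone.

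A stretch around the mean crossing of fork direction in the core of chromosome 2 is shown first, because no 50-base word of that core occurs elsewhere in the genome. All sequences are RefSeq sequence of ASM294v3. Here and in the origin sequences the capitals mark runs of at least 12 letters that are A or T, and these sequences are 300 bases of the plus strand. This stretch, chr2:1624143-1624442, is centred on the mean position at which rightward replication fell through 50%. Single pairs crossed at 1623186.5 to 1624996.3, and direction changed gradually over the whole core. The stretch therefore marks a mean position and not a site at which forks turned.
core of chromosome 2: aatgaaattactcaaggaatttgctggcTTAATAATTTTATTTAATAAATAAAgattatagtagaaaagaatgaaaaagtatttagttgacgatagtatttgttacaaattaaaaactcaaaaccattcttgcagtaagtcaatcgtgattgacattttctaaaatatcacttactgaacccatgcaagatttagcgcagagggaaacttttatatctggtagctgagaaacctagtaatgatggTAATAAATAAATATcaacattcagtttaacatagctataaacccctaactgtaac

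The ends of that core are shown to set the repeated sequence against the unrepeated one. The left end lies at chr2:1620747-1620836 on the plus strand and the right end at chr2:1627580-1627669 on the minus strand, and here the capitals mark the inner repeat and the lower case the core. The 60 inner repeat bases were identical between the ends, and 8 of the 30 core bases were.
left end: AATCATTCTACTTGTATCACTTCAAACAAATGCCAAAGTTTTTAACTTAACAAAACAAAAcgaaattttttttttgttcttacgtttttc
right end: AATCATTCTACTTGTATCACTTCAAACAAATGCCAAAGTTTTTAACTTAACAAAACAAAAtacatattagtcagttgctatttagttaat

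The 19 origins called in the outer repeats fell into 4 families of copies, named A to D here. Origins were joined where their surroundings shared at least 2000 words of 50 bases and where they lay at most 450 bp apart once the copies were aligned. The copy with the largest mean step is shown for each. Family A was taken at chr3:1127061-1127360, family B at chr3:1090761-1091060, family C at chr1:3777601-3777900 and family D at chr2:1619001-1619300.
family A: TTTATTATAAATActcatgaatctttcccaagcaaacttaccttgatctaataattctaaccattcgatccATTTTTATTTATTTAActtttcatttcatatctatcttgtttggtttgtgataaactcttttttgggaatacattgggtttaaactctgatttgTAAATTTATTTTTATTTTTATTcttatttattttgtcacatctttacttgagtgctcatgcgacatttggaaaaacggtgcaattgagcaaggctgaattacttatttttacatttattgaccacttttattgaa
family B: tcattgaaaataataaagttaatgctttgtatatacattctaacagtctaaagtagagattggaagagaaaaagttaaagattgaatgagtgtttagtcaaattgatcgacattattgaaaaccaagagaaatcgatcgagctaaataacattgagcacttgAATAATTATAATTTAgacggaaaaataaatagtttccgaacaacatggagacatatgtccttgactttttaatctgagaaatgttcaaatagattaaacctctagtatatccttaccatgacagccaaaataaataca
family C: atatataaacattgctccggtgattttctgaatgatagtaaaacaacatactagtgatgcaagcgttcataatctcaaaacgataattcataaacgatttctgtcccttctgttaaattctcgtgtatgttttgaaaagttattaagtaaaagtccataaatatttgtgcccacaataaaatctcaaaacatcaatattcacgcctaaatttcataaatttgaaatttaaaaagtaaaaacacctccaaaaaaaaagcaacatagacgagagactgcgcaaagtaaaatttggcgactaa
family D: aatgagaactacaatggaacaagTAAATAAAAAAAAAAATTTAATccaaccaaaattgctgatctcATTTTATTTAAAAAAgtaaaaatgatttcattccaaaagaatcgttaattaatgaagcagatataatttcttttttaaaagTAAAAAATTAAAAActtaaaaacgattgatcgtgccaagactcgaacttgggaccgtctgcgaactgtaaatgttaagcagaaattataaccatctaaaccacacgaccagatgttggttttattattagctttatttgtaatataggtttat

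Rightward replication was higher on the left side of every central core than on the right. Rightward replication, the mean of the Pol ε share on the Watson strand and the Pol δ share on the Crick strand, was 72.1% ± 1.21 (SD, n = 9 pairs) in the left inner repeat of chromosome 1 and 28.6% ± 1.48 in the right one. On chromosome 2 the values were 80.6% ± 2.29 and 19.1% ± 2.13, and on chromosome 3 they were 63.9% ± 1.69 and 35.6% ± 2.38. On each chromosome the lowest left value over the pairs lay above the highest right value. The inner repeats are inverted copies, so their values mirrored each other by construction (r = 0.998, 0.999 and 0.994 across 26, 6 and 24 bin strands). An exchange of counts between inverted copies does not alter the difference between the sides. It can alter the value of each side alone, so the balance of forks from left and right is not given by these values.

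That difference was compared over pairs after the central domain, the core with its inner repeats, was divided at the middle of the core. On chromosome 1 rightward replication was higher on the left side by 33.1 ± 2.07 percentage points (n = 9), with pairs from 29.7 to 35.4. On chromosome 2 it was higher by 40.1 ± 3.76 points, with pairs from 32.6 to 45.6. On chromosome 3 it was higher by 23.8 ± 3.39 points, with pairs from 17.6 to 26.8. The sign was the same in 9 of 9 pairs on each chromosome (exact two-sided sign-flip test over pairs, adjusted p = 0.00391 for each, the smallest that 9 pairs allow). The same test across 276 windows of 43 kb in the rest of the genome passed in 94.2% of windows, and in 59.4% in this direction, so passing it does not set the centromeres apart. In size, 6, 3 and 22 of the 276 windows reached the values of chromosomes 1, 2 and 3. The sides taken in those windows were not matched to the central domains in length or placement. All windows were 43 kb long, whatever the length of the centromere, here and below.

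**Figure D1:**
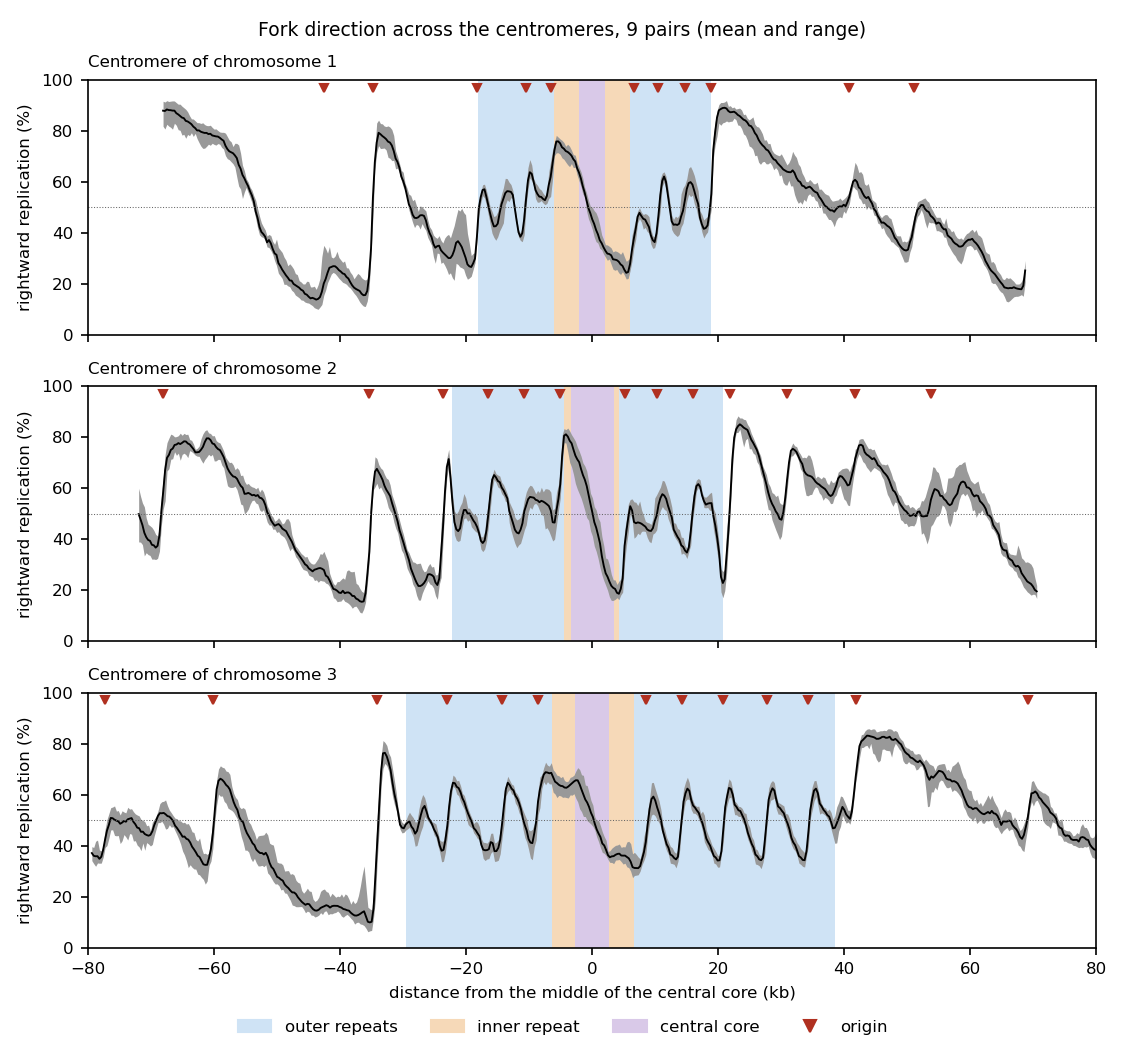
Rightward replication (%) against distance from the middle of the central core (kb) for each centromere and its flanks. The line is the mean and the grey band the range over 9 pairs, shading marks the outer repeats, inner repeats and core, and triangles mark called origins; in each core the line falls through 50% once, between a high left inner repeat and a low right one.

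The share of each polymerase by strand traced the same course in the unrepeated core of chromosome 2. In windows of 900 bp from position 1620801 to 1627100, the Pol ε share of the Watson strand was 69.6%, 66.6%, 59.9%, 49.4%, 40.0%, 31.3% and 21.7% from left to right. On the Crick strand it was 20.1%, 27.7%, 32.0%, 42.7%, 52.6%, 63.6% and 73.03%. The strands thus exchanged Pol ε step by step across the core, with every window lower than the one before on the Watson strand and higher on the Crick strand. Rightward replication went from 74.8% ± 5.75 to 24.3% ± 3.61 between the first window and the last, and the ranges of the pairs at these ends, 62.3 to 79.99% and 19.95 to 30.4%, did not overlap. The Pol δ share over both strands stayed between 52.5% and 55.2% in the 7 windows, with SDs of 3.49 to 5.69. Without any repeated bin, the difference between the sides of the central domain of chromosome 2 was 34.4 points (adjusted p = 0.00391, exact sign-flip test).

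**Figure D2:**
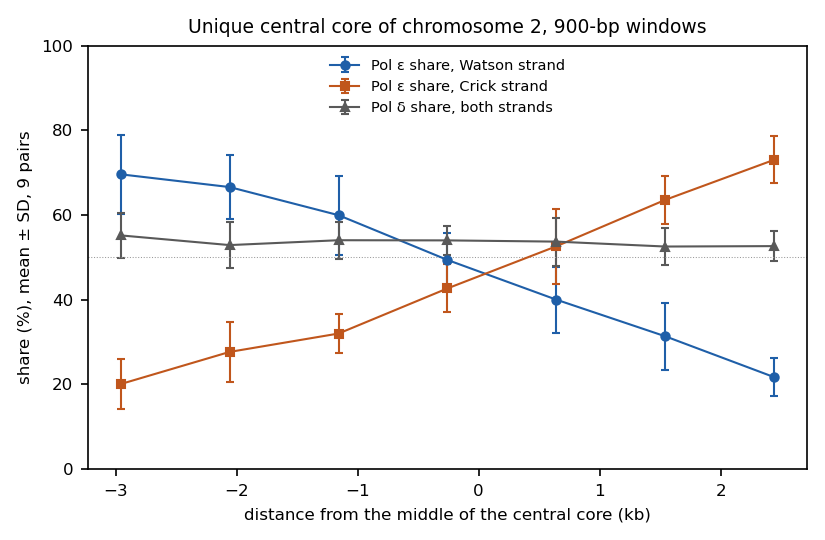
Pol ε share of the Watson strand, Pol ε share of the Crick strand and Pol δ share over both strands (%), as mean ± SD of 9 pairs, in 900-bp windows of the unrepeated core of chromosome 2 against distance from its middle (kb). Pol ε falls from 69.6% to 21.7% on the Watson strand and rises from 20.1% to 73.03% on the Crick strand, while the Pol δ share over both strands stays between 52.5% and 55.2%.

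The bin that follows these windows, chr2:1627101-1627400, was chosen for mention after its values were seen. Its Pol δ level on the Watson strand was 5.58 ± 3.84 times the mean of that strand (1.87 to 12.3 over 9 libraries), against 0.235 ± 0.190 on the Crick strand. Pol ε in the same bin stood at 1.32 ± 1.02 and 0.584 ± 0.353. The pooled value of that core gives much weight to this bin, which is why the core was described in windows. The bin does enter the other values given here that pool the bins of that core. Among them are the difference between the sides above and the values without repeated bins below.

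Rightward replication, smoothed, passed 50% once in the central domain in each of the 9 pairs on each chromosome. The mean crossing lay at 3770613 ± 295 bp on chromosome 1, a mean of -524 bp from the middle of the core, with positions left of it negative. On chromosome 2 it lay at 1624292 ± 578 bp, 83.5 bp right of the middle, and on chromosome 3 at 1099643 ± 441 bp, 146 bp right of the middle. Over single pairs the distance from the middle ran from -960 to 28.8 bp on chromosome 1, from -1022 to 788 bp on chromosome 2 and from -827 to 645 bp on chromosome 3. The SDs on chromosomes 2 and 3 exceeded the distance from the middle. Counts shared between the inverted inner repeats would set their values on either side of 50%, with a crossing between them. On chromosomes 1 and 3 most words of the core are repeated as well, so the crossings there need not be true positions. The part of shared counts in the crossings was not tested.

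At the edges of the centromeres, more replication ran rightward on the right side than on the left. In the 10 kb that begin 3 kb beyond each bound, rightward replication was 41.8% ± 1.16 on the left and 77.4% ± 2.16 on the right of chromosome 1, and 42.6% ± 2.07 and 68.1% ± 1.69 on chromosome 2. On chromosome 3 the edges stood at 21.6% ± 2.19 and 79.5% ± 1.71, the widest separation of the 3 centromeres. The left edges of chromosomes 1 and 2 were mixed, and within them chr1:3738001-3741000 was 72.6% ± 3.46 and chr2:1590001-1593000 61.2% ± 2.33 rightward, that is toward the centromere. The right edge exceeded the left by 35.6 ± 2.81 points on chromosome 1 (29.2 to 39.0), by 25.5 ± 3.48 on chromosome 2 (20.3 to 31.2) and by 57.9 ± 3.85 on chromosome 3 (49.2 to 61.9), in 9 of 9 pairs each (exact sign-flip test, adjusted p = 0.00391). Of the 276 windows elsewhere, 95.7% passed this test and 53.3% in this direction, while 28, 56 and 0 of them reached the 3 values. Those windows were not matched to the centromeres in length, and that of chromosome 3 is the longest. The rnh201-RED pku70+ barrier-off pair was the lowest of the 9 at the edges of all 3 chromosomes, at 29.2, 20.3 and 49.2 points.

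**Figure D3:**
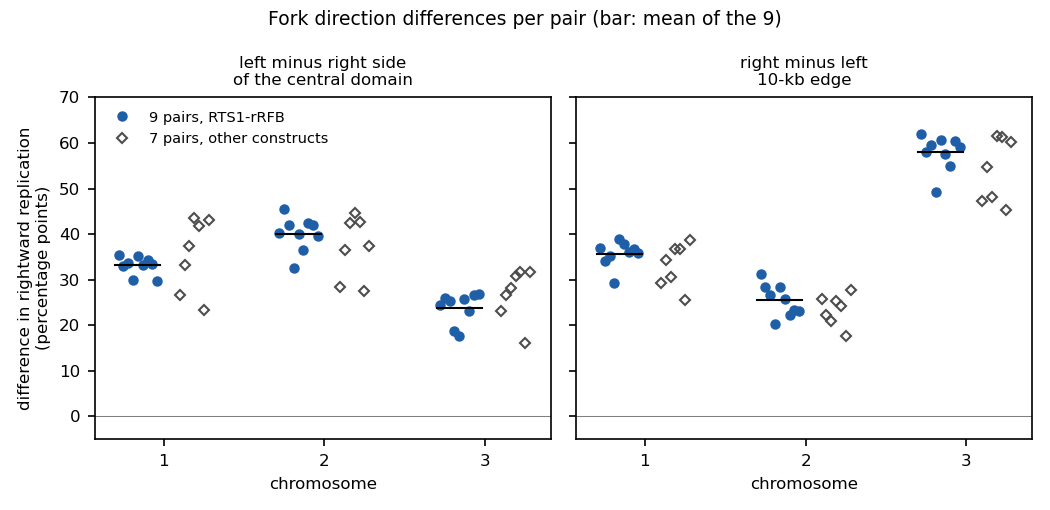
Difference in rightward replication (percentage points) per chromosome, for the left minus the right side of the central domain and for the right minus the left 10-kb edge. Filled points are the 9 pairs described here with their mean as a bar, open diamonds the 7 pairs that carry other constructs. With polymerases named by library title, every point lies above 0.

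The 7 pairs of strains with other constructs, which were not part of the tests, gave the same signs. Their differences within the central domain were 23.3 to 43.6 points on chromosome 1, 27.6 to 44.7 on chromosome 2 and 16.1 to 31.7 on chromosome 3. Their edges differed by 25.6 to 38.6, 17.7 to 27.7 and 45.3 to 61.5 points. These ranges overlap those of the 9 pairs on every chromosome.

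Averaged over their length, the centromeres stood at 49.7%, 49.4% and 48.8% rightward replication on chromosomes 1, 2 and 3. Sharing of counts between inverted copies would draw these means toward 50%, and its part was not tested. Differences from the flanks therefore need not reflect the forks of the centromeres. Rightward replication differed from that of the flanks by 0.16 ± 0.56 points on chromosome 1 (4 of 9 pairs with one sign, exact sign-flip adjusted p = 0.410), by -2.35 ± 0.69 on chromosome 2 and by 2.94 ± 0.49 on chromosome 3 (9 of 9 pairs each, adjusted p = 0.00586). Of the 276 windows elsewhere, 92.8% passed this test. The sign depended on the flanks that were chosen, since flanks of 20 kb gave -5.83 points on chromosome 1 and flanks of 100 kb gave 1.83 on chromosome 2 and -2.78 on chromosome 3 (exact sign-flip adjusted p = 0.0117, 0.00521 and 0.00521).

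Between the cores and the edges, the outer repeats alternated between rightward and leftward forks, and their means were near 50% (46.8 to 52.4%). How far counts shared between inverted copies drew these means toward 50% was not tested. An origin was called where the smoothed rightward share stepped up by at least 10 points in at least 5 of the 9 pairs. The outer repeats held 19 origins, or 1.66 per 10 kb, the flanks 18, or 0.60 per 10 kb, and the genome 668, or 0.531 per 10 kb. There were 2 on the left and 3 on the right of centromere 1, 3 and 3 in centromere 2, and 3 and 5 in centromere 3. The count in the cores and inner repeats was 0, at thresholds of 5 and 20 points and with smoothing over 7 bins as well. These are counts of positions with no test, and copies of a sequence are not independent positions.

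The origins in the outer repeats had smaller steps than most. Their median step was 24.6 points, against 27.9 in the flanks and 30.0 over all 668 origins, of which the largest was 70.1. The largest step in centromere 1 was 22.5 ± 1.24 points at 3760650 (21.2 to 24.9 over 9 pairs), in a non-coding RNA gene. In centromere 2 it was 32.9 ± 2.95 points at 1619150 (27.6 to 38.0), in a bin that holds the valine tRNA gene SPOM_SPBTRNAVAL.06. In centromere 3 it was 26.3 ± 2.92 points at 1127210 (20.7 to 30.6), also in a non-coding RNA gene. Copies of a sequence may share counts, so their steps are not independent. Positions of origins are the middles of 300-bp bins, and distances to genes are measured from these middles.

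The sequences printed above show a single bin of each of these families. Family A held 10 origins on 3 chromosomes with steps of 22.5 to 26.3 points. Family B held 5 on 3 chromosomes with steps of 13.2 to 24.6 points. Family C was an inverted pair in centromere 1 with 21.7 and 21.8 points, and family D an inverted pair in centromere 2 with 32.9 and 32.2 points. The bins of family D overlapped the tRNA genes SPOM_SPBTRNAVAL.06 and SPOM_SPBTRNAVAL.07, which lay 24 and 109 bp from the middles of the bins. The copies of family A agreed more closely than those of family B, where both origins of chromosome 3 had 24.6 and 24.2 points and the 3 others 13.2 to 15.1.

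The bins that held these origins were rich in AT. Their mean AT content was 72.9% (70 to 78%), against 66.8% in all outer-repeat bins and 63.9% in all bins. A run of at least 12 letters that are A or T, searched as those letters alone so that both strands give the same result, occurred in 18 of the 19 origin bins, in 45.1% of outer-repeat bins and in 41.4% of all bins. The one without such a run belongs to family C and is shown above. Because the 19 bins lie in copies of 4 sequences, the shares carry no test. Bins of a family were offset by up to 403 bp, so they need not hold the same bases as the bin shown.

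At the bounds of the centromeres stood origins with larger steps. Outside centromere 1 they lay at 3752850 (27.4 ± 4.79 points, 310 bp from the non-coding RNA gene IRC1-L) and at 3790050 (41.4 ± 3.72). Outside centromere 2 they lay at 1600550 (44.3 ± 3.27) and 1646150 (55.3 ± 3.87), 417 and 506 bp from tRNA genes. On the left of centromere 3 the nearest origin, at 1065410, stepped by 61.4 ± 4.98 points, and on the right the nearest, at 1141310, by 28.4 ± 1.99. Apart from those of centromere 1 at 3752850 and centromere 3 at 1141310, each exceeded every origin in the outer repeats.

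Pol δ made a slightly larger share of the centromeres than of their flanks. Over both strands its share was 55.3%, 55.9% and 54.5% in the 3 centromeres and 51.8%, 52.4% and 50.01% in the flanks. The difference was 3.46 ± 2.48 points on chromosome 1 (0.24 to 8.22, 9 of 9 pairs, exact sign-flip adjusted p = 0.00586), 3.47 ± 3.22 on chromosome 2 (-0.90 to 9.08, 7 of 9 pairs, adjusted p = 0.0208) and 4.48 ± 2.50 on chromosome 3 (1.13 to 10.1, 9 of 9 pairs, adjusted p = 0.00586). The same test passed in 73.9% of the 276 windows elsewhere, and in 37.3% in this direction, and 47, 47 and 25 of them lay as high as centromeres 1, 2 and 3. With flanks of 20 kb the differences on chromosomes 1 and 2 were 2.11 and 2.06 points (adjusted p = 0.111 and 0.219, exact test), and without repeated bins, which leaves 26 and 6 bins, those on chromosomes 2 and 3 were 6.15 and 3.10 points (adjusted p = 0.0603 and 0.0990).

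In windows of 3 kb the share within the centromeres ran over a few points. The windows of 3 kb with the highest values were chr1:3783001-3786000 at 56.7% ± 3.4, chr2:1617001-1620000 at 57.9% ± 2.58 and chr3:1115001-1118000 at 56.2% ± 2.57, all in outer repeats. The lowest were chr1:3771001-3774000 at 53.6% ± 4.69 and chr2:1623001-1626000 at 52.2% ± 3.88, both in cores, and chr3:1133001-1136000 at 52.5% ± 3.26 in an outer repeat. On each chromosome the ranges of the 9 pairs overlapped between the highest and the lowest window. On chromosome 2 the order of core and outer repeats depended on the averaging. With counts pooled over each whole part, the core stood at 58.7% ± 6.55 (48.3 to 66.4), above the outer repeats at 55.2% ± 1.75 and 55.5% ± 1.85, and the ranges overlapped.

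The count level, the counts per bin divided by the mean of all bins of a library, separated the parts. For Pol δ the outer repeats stood at 1.35 ± 0.12 and 1.33 ± 0.15 (left and right) on chromosome 1, at 1.28 ± 0.15 and 1.29 ± 0.14 on chromosome 2, and at 1.64 ± 0.20 and 1.67 ± 0.22 on chromosome 3. For Pol ε they stood at 1.09 ± 0.11 and 1.07 ± 0.12, 1.04 ± 0.10 and 1.05 ± 0.11, and 1.39 ± 0.19 and 1.41 ± 0.22. Both polymerases were thus highest in the outer repeats of chromosome 3. The cores were lower, at 0.935, 0.942 and 0.842 for Pol δ and at 0.707, 0.644 and 0.676 for Pol ε, and the inner repeats of chromosome 1 were lowest for Pol δ, at 0.640 and 0.652.

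Against the flanks, the log2 level of Pol δ was higher by 0.24 ± 0.11 on chromosome 1 (0.16 to 0.51), by 0.28 ± 0.10 on chromosome 2 (0.14 to 0.38) and by 0.75 ± 0.12 on chromosome 3 (0.63 to 0.92), in 9 of 9 libraries each (exact sign-flip adjusted p = 0.00586). This test passed in 67% of the 276 windows elsewhere and in 31.2% in this direction, and 18, 15 and 0 of them reached these values. For Pol ε the differences were 0.04 ± 0.15 (adjusted p = 0.410), 0.07 ± 0.16 (adjusted p = 0.244) and 0.49 ± 0.20 (9 of 9 libraries, 0.05 to 0.70, adjusted p = 0.00586, exact sign-flip test). For that polymerase 61.2% of windows elsewhere passed and 26.4% in this direction, with 87, 62 and 0 as high. Without the bins whose sequence is repeated, which leaves 2, 26 and 6 bins, of which 2, 22 and 6 are core, the Pol δ differences were 0.20, -0.10 and -0.19 (adjusted p = 0.0990, 0.535 and 0.251, exact test) and those of Pol ε were -0.25, -0.46 and -0.49 (adjusted p = 0.00938 each). Leaving out repeated bins thus also leaves out nearly all of the outer repeats, and the effects of repetition and of the part cannot be told apart here.

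**Figure D4:**
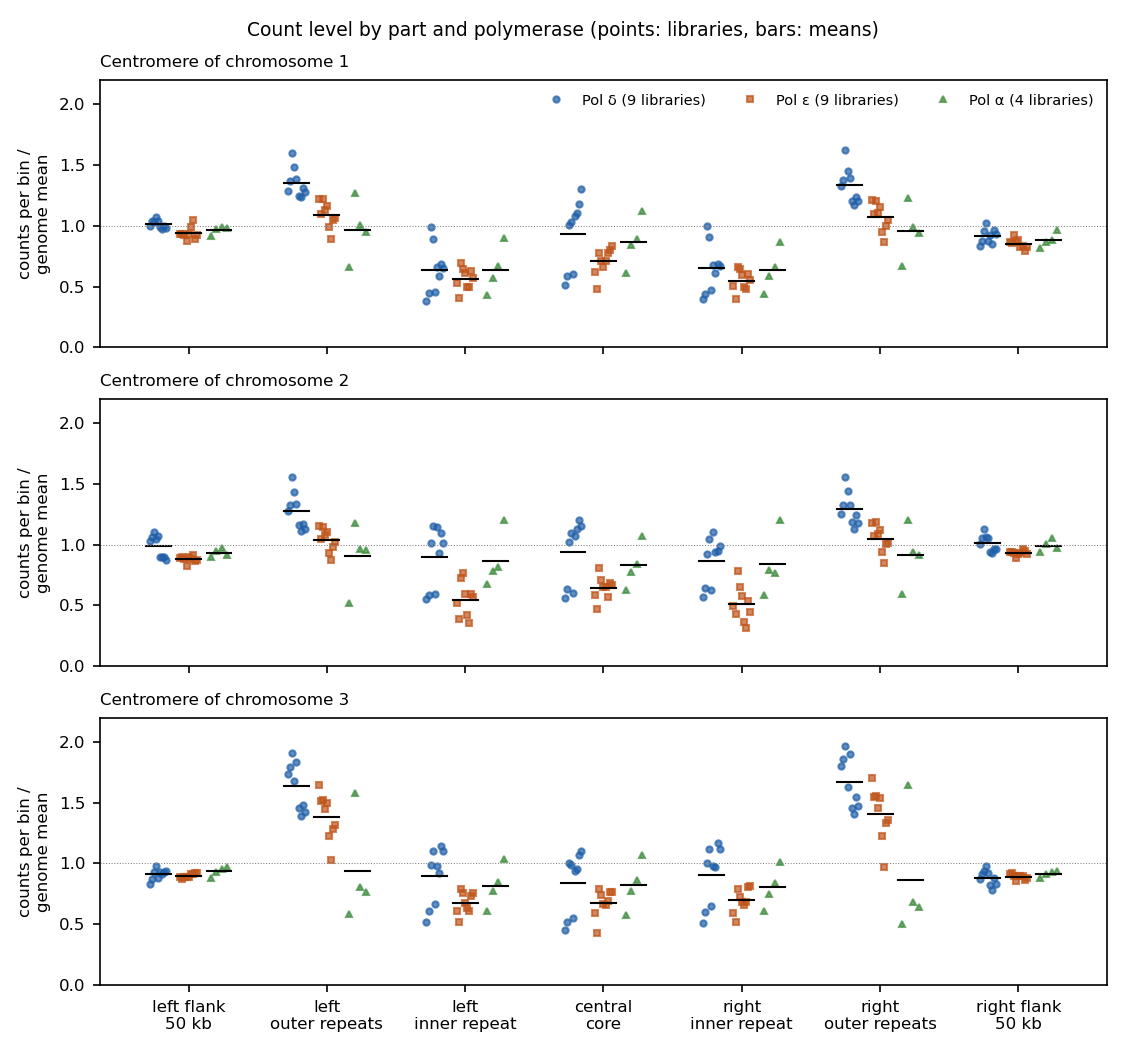
Counts per bin relative to the genome mean of the same library (ratio) in the parts of each centromere and in the 50-kb flanks, for Pol δ (9 libraries), Pol ε (9) and Pol α (4). Points are libraries and bars their means; for Pol δ and Pol ε the means of the outer repeats exceed those of the inner repeats and cores on every chromosome.

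The level in the cores differed widely between Pol δ libraries. In the unrepeated core of chromosome 2 it was 0.560 in the rnh201-RED barrier-off library labelled pku70-d, 0.634 in its barrier-on counterpart and 0.606 in the adh1-rtf1 library, and 1.02 to 1.21 in the 6 others, with no value between. Unrepeated bins of the chromosome arms with 70 to 73% AT, close to the composition of the core, separated in the same way, at 0.625 to 0.669 in the same 3 libraries and at 0.949 to 1.03 in the others. The ranges of Pol ε in that core overlapped, at 0.474 to 0.648 and 0.567 to 0.811. The part of base composition in the level of the cores was not tested.

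Pol α followed the forks by strand. The Crick share of its counts was 58.5 to 67.5%, 68.2 to 70.8% and 67.4 to 70.8% over 4 libraries on the left side of the central domains of chromosomes 1, 2 and 3. On the right side it was 28.7 to 32.4%, 23.7 to 31.7% and 30.4 to 36.8%. The ranges did not overlap on any chromosome, with the Crick strand high where forks ran rightward. At the edges the order was reversed, with 35.0 to 43.9%, 39.8 to 50.6% and 15.6 to 19.4% on the left and 63.0 to 74.9%, 67.2 to 68.3% and 80.04 to 82.6% on the right. In the outer repeats the shares lay nearer to 50%, at 51.4 to 57.1% on the left and 41.2 to 48.4% on the right. The part of counts shared between inverted copies in this was not tested. The 95% Wilson intervals, which cover counting error only, reached at most 1.60 points to either side.

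**Figure D5:**
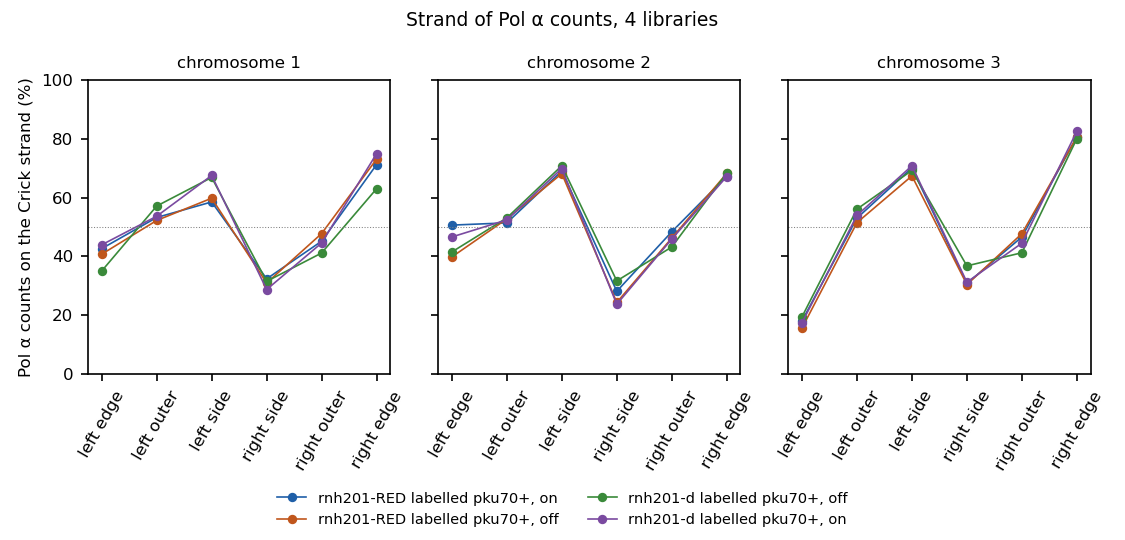
Share of Pol α counts on the Crick strand (%) in 6 regions from left to right across each centromere, with 1 line for each of the 4 libraries. The left side of the central domain lies at 58.5% or more and the right side at 36.8% or less in every library, and the edges show the opposite order.

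The level of Pol α against the flanks varied between its 4 libraries more than that of Pol δ did between 9. On chromosome 3 the log2 level was 0.66 in the rnh201-RED barrier-off library, -0.68 in the rnh201-RED barrier-on library, and -0.31 and -0.33 in the rnh201-d libraries with the barrier off and on. Over the 4 libraries the means were -0.10 ± 0.30, -0.15 ± 0.39 and -0.17 ± 0.57 on chromosomes 1, 2 and 3. Pol α minus Pol δ was -0.34, -0.43 and -0.91 (exact two-sided permutation test of 4 against 9, adjusted p = 0.00699 each). The test does not pair Pol α with the Pol δ libraries of the same labels. The 9 also include pku70-d and adh1-rtf1 strains, which have no Pol α library. Without the rnh201-d barrier-off library, whose pku70 counts went against its label, they were -0.36, -0.44 and -0.86 (adjusted p = 0.0227 each, exact). Without the rnh201-RED barrier-on library, the lowest of the 4 on each chromosome, they were -0.20, -0.24 and -0.74 (adjusted p = 0.0227 each, exact). Without repeated bins they were -0.17, -0.16 and -0.17 (adjusted p = 0.557 each, exact) and no longer passed.

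Bins without counts were rare. In 21 of the 22 libraries every one of the 986 bin strands of the centromeres held counts. Elsewhere in the genome 2 to 31 of 82838 bin strands per library held none. Centromere bin strands below 10% of the mean of their strand numbered 0 to 13 per library. The rnh201-RED barrier-on Pol α library had 13 of these, as did the rnh201-d pku70+ barrier-on Pol δ and Pol ε libraries. That Pol α library had 3 empty bin strands in the centromeres, both strands of chr2:1603401-1603700 and the Crick strand of chr2:1601901-1602200. The first of these bins holds no repeated 50-base word, and the 3 other Pol α libraries stood at 0.830, 1.04 and 1.03 there relative to the genome mean. In the same library chr2:1603101-1603400 stood at 0.0677, against 0.745, 0.669 and 0.993 in the others. At the bound of that centromere chr2:1601901-1602200 stood at 0.0097, against 0.566 to 1.39, and just outside it chr2:1601601-1601900 at 0.0242, against 0.767 to 1.08. All 4 bins of this edge in which at most 25.3% of 50-base words are repeated were thus nearly empty in that library alone among the Pol α libraries, and the cause was not tested.

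Fitted over the whole genome in windows of 3 kb per strand, Pol ε minus Pol δ differed in 81 of the 98 windows in the centromeres (edgeR quasi-likelihood test, adjusted p below 0.05), where 91.6% of all 8380 windows passed. Of these 81, 13 had more Pol ε and 68 less, against 46.9% higher and 44.7% lower over all windows, and the median log2 difference was -0.38 against 0.045 for all. In the outer repeats 57 of 76 windows were lower and 6 higher, and in the cores 7 of 14 were lower and 3 higher. The windows with the lowest adjusted p were the Crick strand of chr3:1091001-1094000 (-1.57 ± 0.08 SE, adjusted p = 5.11e-11), the Watson strand of chr2:1626001-1629000 (-2.31 ± 0.12) and the Crick strand of chr2:1620001-1623000 (-1.94 ± 0.12). The last 2 cover the ends of the core of chromosome 2 and run beyond it into the repeats. They lie on the strand that the entering fork made as its lagging strand. The Watson window also holds the bin of that core that was set apart above. In that bin Pol δ stood at 5.58 ± 3.84 times the mean of the Watson strand, and Pol ε at 1.32 ± 1.02. The part of that bin in the value of -2.31 was not tested. Windows in repeats may share counts with their copies and are not independent.

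Between the rnh201 alleles, rnh201-RED minus rnh201-d differed in 65 of 98 windows, 37 higher and 28 lower, where 75.6% of all windows passed, 35.6% higher and 40% lower. With the adh1-rtf1 pair added, 41 of 98 differed, where 62.4% of all windows passed. Without that pair, the higher ones were mostly outer repeats (34 of 76) and the lower ones included 9 of 14 windows of the cores and 5 of 8 of the inner repeats. The rnh201-RED Pol δ libraries labelled pku70-d had low counts in AT-rich bins of the arms, unlike the rnh201-d libraries of this fit. Their part in the result by allele was not tested. The lowest adjusted p belonged to the Crick strand of chr1:3753001-3756000 (0.83 ± 0.06 SE), the Crick strand of chr3:1088001-1091000 (0.81 ± 0.06) and the Watson strand of chr1:3786001-3789000 (0.79 ± 0.06), all outer repeats, with adjusted p of 2.39e-08 to 8.81e-08 in edgeR. Over whole centromeres, 4 pairs against 4, no difference by allele passed the exact permutation test, for which the lowest adjusted p was 0.171: the Pol δ share against the flanks differed by -4.98 points on chromosome 2, where the rnh201-RED pairs lay at -0.90 to 2.47 and the rnh201-d pairs at 4.29 to 9.08 without overlap. The log2 level on chromosome 3 differed by 0.24, again without overlap and with adjusted p = 0.171 (exact). With 4 against 4 the smallest unadjusted p is 0.0286.

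By the pku70 label, 34 of 98 windows differed, 0 higher and 34 lower in pku70-d, where 23.6% of all windows passed and 8.97% were lower. Windows of the cores (10 of 14) and inner repeats (7 of 8) were lower more often than those of the outer repeats (17 of 76), a comparison of counts without a test. Named by the lowest adjusted p, these were the Crick strand of chr2:1623001-1626000 (-0.50 ± 0.07 SE, adjusted p = 0.000834, edgeR), in the unrepeated core, the Crick strand of chr3:1094001-1097000 (-0.53 ± 0.09) and the Watson strand of chr3:1100001-1103000 (-0.64 ± 0.11). Within the rnh201-RED libraries, where counts over pku70 were absent as labelled, 41 windows differed, 9 higher and 32 lower, where 25.9% of all windows passed, 15% higher and 11% lower. Within the rnh201-d libraries, whose pku70 counts did not bear out a deletion, 4 differed, all lower, where 2.7% of all windows passed, 1.69% higher and 1% lower. With the adh1-rtf1 pair added the count was 0 of 98 (28 at an unadjusted p below 0.05), where 0.561% of all windows passed. The 2 rnh201-RED Pol δ libraries labelled pku70-d are also among those with low counts in AT-rich bins of the arms, and their part in the result was not tested.

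No difference by the state of the RTS1 barrier was detected in the centromeres. The count was 0 of 98 windows by edgeR and by DESeq2, with 1 at an unadjusted p below 0.05, where 0.0955% of all windows passed by edgeR and 2.86% had such an unadjusted p. Over whole centromeres the Pol δ share differed by 1.0, 1.21 and 0.55 points and the log2 level by -0.07, -0.05 and -0.09 between barrier on and off (exact permutation adjusted p of 0.720 to 0.857). For Pol α minus Pol δ, edgeR passed 0 of 98 windows and 0% of all windows, though 69 of the 98 had an unadjusted p below 0.05 against 24.7% of all windows, with a median log2 difference of -0.73 against 0.018. DESeq2 passed 52 of the 98, all lower, against 5.37% of all windows lower. With known changes put into 100 windows of 8 libraries, edgeR recovered 3 at 1.5-fold and 49 at 2-fold. Its count of 0 therefore does not tell how many windows differed. The lowest adjusted p in edgeR was 0.157, shared by the Crick strand of chr3:1103001-1106000 (-0.79 ± 0.16 SE), the Watson strand of chr2:1611001-1614000 (-0.85 ± 0.18) and the Watson strand of chr3:1088001-1091000 (-0.94 ± 0.20).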

How the data were processed

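Ribonucleotide positions were mapped by alkali digestion, size selection and sequencing, and the submitters' processing notes name Bowtie2 as the aligner. The deposited values are raw counts per 300-bp bin and strand, which the authors made from the alignments with a Perl script and did not normalize. The genome build and the handling of reads with several matches are not given in the sources used here. Positions were taken from chromosome lengths and count profiles against RefSeq ASM294v3.

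The f files were read as Watson and the r files as Crick. Counts were divided by library totals, and the Pol ε share is Pol ε over Pol δ plus Pol ε. Regions were compared by exact two-sided sign-flip tests over pairs or exact permutation tests, and windows of 3 kb with at least 10 counts in every library by edgeR 4.0.16 (R 4.3.3, TMM, quasi-likelihood test), with DESeq2 1.42.0 as an alternative. P-values were adjusted by Benjamini-Hochberg at 0.05. Total counts ranged from 3304406 to 30967258 per library. Scripts used Python 3.11.15, NumPy 2.4.6, pandas 2.3.3, SciPy 1.17.1 and matplotlib 3.10.9, and were tested on simulated data.

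The regions named were the 3 centromeres and their parts, in each centromere the origin with the largest mean step and the 3-kb windows with the highest and lowest Pol δ share, bins without counts, and up to 3 windows per edgeR contrast by adjusted p. Regions and measures were chosen with earlier results of these data known. Alternatives were flank width, leaving out repeated or extreme bins, bounds, scaling, averaging, window size, each library in turn and the replicate block. The inward and outward fork measures and the separate fits by rnh201 allele were added after the data were seen. No annotation of the outer repeat classes was used.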

Additional observations from a re-analysis of the deposited data

Results flagged for a closer look

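In 66 groups of 4 to 10 values, 4 held a value set apart from the others by Dixon's criterion, where chance sets apart about 1 in 20 groups. The rnh201-d barrier-on pair labelled pku70-d had a Pol δ share 10.1 points above the flanks on chromosome 3, and the 8 others 1.13 to 5.69 points. The rnh201-RED pku70+ barrier-off Pol δ library had a log2 level of 0.51 over the flanks on chromosome 1, and the 8 others 0.16 to 0.31. The rnh201-RED barrier-off Pol α library stood at 1.64 times the genome mean in the right outer repeats of chromosome 3, and the 3 others at 0.505 to 0.681. The rnh201-d barrier-off Pol α library, whose pku70 counts went against its label, had a Crick share of 36.8% on the right side of the central domain of chromosome 3, and the 3 others 30.4 to 31.2%. No cause was tested for any of these.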

How the results depend on the processing

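Of the 220 values recomputed under another setting with all libraries kept, 178 were taken as unchanged. Tested values had then kept their direction and their side of the threshold, and counts of windows or origins had stayed near the main count. With flanks of 20 kb the Pol δ share differed by 2.11 and 2.06 points on chromosomes 1 and 2, net rightward replication by -5.83, -0.12 and 0.28 points, the log2 level on chromosome 1 by 0.10 for Pol δ and -0.0204 for Pol ε, and Pol α minus Pol δ there by -0.24. With flanks of 100 kb net rightward replication differed by 1.98, 1.83 and -2.78 points. Without repeated bins, which leaves 2, 26 and 6 bins, the Pol δ share differed by 6.15 and 3.10 points on chromosomes 2 and 3 and net rightward replication by -2.71 and -1.50 on chromosomes 1 and 2. The log2 level then differed by 0.20, -0.10 and -0.19 for Pol δ, by -0.25, -0.46 and -0.49 for Pol ε and by -0.17, -0.16 and -0.17 for Pol α minus Pol δ, that of rnh201-RED minus rnh201-d by -0.22, -0.41 and -0.19, the pku70 contrast of the Pol δ share by -0.10 and -1.59 on chromosomes 2 and 3, and the barrier contrast of the level by 0.13 on chromosome 1. Without extreme bins net rightward replication on chromosome 1 was 1.72 and the log2 level of Pol ε 0.10, with bounds moved in by 3 kb the latter was -0.10, and as a mean of single bins that of chromosome 2 was -0.0241. Fork differences inside and outside the centromeres kept sign and call in all settings run. Without repeated bins the inside difference was available for chromosome 2 alone. Causes of these changes were not tested.

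Windows of 900 bp gave 260, 239 and 113 of 330 called by polymerase, allele and pku70 label. With the adh1-rtf1 pair, 18 libraries gave 41 windows by allele and 0 by pku70 label, the rnh201-d libraries alone gave 4 by pku70 label, and DESeq2 gave 52 for Pol α minus Pol δ. At a threshold of 20 points the flanks held 11 origins. With the replicate block, each pair as a block, 80 windows differed between Pol ε and Pol δ, against 81 without it, and no other contrast can be fitted with that block, since it varies between pairs.

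With each pair or library left out in turn, the log2 level of Pol ε on chromosome 2 was 0.0508 to 0.11 and passed without the rnh201-d barrier-on pair labelled pku70-d (adjusted p = 0.0375, exact sign-flip test). The pku70 contrast of the Pol δ share ran from -0.11 to 2.55 and from -0.92 to 2.41 points on chromosomes 1 and 2 and of the level from -0.12 to 0.0210 on chromosome 3. The barrier contrast of the Pol δ share ran from -0.34 to 1.81, from -0.31 to 2.32 and from -1.24 to 1.76. None of these passed in any of the fits. Windows called by pku70 label ran from 21 to 38, with 22 and 21 without the rnh201-RED barrier-on Pol δ and Pol ε libraries labelled pku70-d. Those of Pol α minus Pol δ ran from 0 to 27, with 27 without the rnh201-RED barrier-off Pol α library. The parts held 37 to 76812 counts per library and strand, and the effect of depth was not tested.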
